A study of Mus musculus with 4 samples.

Results

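The Myc network and the machinery that builds ribosomes in the nucleolus were examined as a set of 39 genes in RNA-Seq libraries. The study describes these libraries as CD4+ T cells isolated from mouse lung tumors. The genes were chosen by name, with earlier results of these data known. All 39 were among the 25239 gene symbols of the count tables, and all 39 passed the filter on low counts that left 13919 genes for testing. The data comprised 4 libraries of C57BL/6 background, 2 from WT mice and 2 from CD4CreERT2+/-/Acvr1bfl/fl mice, called CD4/ALK4-KO. In the latter, tamoxifen, injected intraperitoneally before the tumor cells, switches on a Cre recombinase driven by the *Cd4* promoter, which deletes *Acvr1b*, the gene of the activin type I receptor ALK4. Mice were males of 8 to 10 weeks. Both genotypes carried lung tumors of the LLC-OVA line, a Lewis lung carcinoma expressing ovalbumin, excised 18 to 22 days after intravenous inoculation by the labels and 16 to 20 days by the methods. CD4+ T cells were isolated from the leukocyte layer of a density gradient. Whether a library came from 1 mouse or from pooled mice, and which alleles the WT mice carried, is not given in the sources used here.

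Myc is a transcription factor that binds DNA as a pair with its partner Max. Mxd1, Mxd4 and Mnt bind Max as well and repress genes at the same DNA motif, the E-box, so that they oppose Myc. When a T cell is activated, Myc drives growth, and a large part of that programme is the making of ribosomes: RNA polymerase I transcribes the ribosomal RNA precursor, small nucleolar ribonucleoproteins (snoRNPs) modify it, and assembly factors fold and cleave it into the small (40S) and large (60S) subunits.

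The libraries held 11823908 to 13943237 counts, and the 39 genes were well covered, with 97 to 28521 counts each per library and at least 100 in every library for 38 of them. *Acvr1b* itself did not separate the labels, with 426 and 342 counts in WT and 322 and 445 in CD4/ALK4-KO (log2 fold change 0.16, standard error or SE 0.24, adjusted p = 0.66), and which exons are floxed is not given in the sources used here, so that genotypes are those of the labels. T cell markers were present in every library but differed in abundance. All 15 genes of a T cell list were higher in CD4/ALK4-KO (median log2 fold change 2.41), and their summed level was 511 to 559 CPM (counts relative to the size of the library, scaled with the TMM method of edgeR) in WT and 2840 to 2950 CPM in CD4/ALK4-KO. *Cd4*, 1 of the 15 genes and the marker by which the cells were isolated, had 55.4 and 48.0 CPM in WT. It had 307 and 327 CPM in CD4/ALK4-KO (log2 fold change 2.62, SE 0.23). In every library, a macrophage list and a fibroblast list each summed to more than the T cell list. The 8 macrophage genes summed to 5740 and 6890 CPM in WT and 5900 and 5530 CPM in CD4/ALK4-KO. The 6 fibroblast genes summed to 6690 and 7280 CPM in WT and 4760 and 3950 CPM in CD4/ALK4-KO. In bulk RNA, fewer cells of a type and less RNA per cell cannot be told apart, and the part of cell composition in the differences below was not tested.

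Of the 39 genes, 16 were called lower and 1 higher in CD4/ALK4-KO, with a threshold of 0.05 on the adjusted p (quasi-likelihood test of edgeR, Benjamini-Hochberg adjustment over all genes tested). Among all genes tested, 15.4% were lower and 17.4% higher, against 41.0% lower and 2.56% higher among the 39. The 39 were chosen with earlier results of these data known, which limits this comparison. Their median log2 fold change was -0.43, whereas that of all genes was -0.008. The lower genes were *Myc*, the polymerase subunit gene *Polr1c*, 8 genes of snoRNPs and abundant nucleolar proteins (*Fbl*, *Nop58*, *Ncl*, *Npm1*, *Dkc1*, *Gar1*, *Nhp2*, *Nop10*), 2 of the small subunit route (*Rrp9*, *Nob1*) and 4 of the large subunit route (*Wdr12*, *Nop16*, *Rrs1*, *Gnl3*). *Mxd1*, an antagonist of Myc, was the gene that rose. Both CD4/ALK4-KO libraries lay below both WT libraries for 22 of the 39 genes and above them for 7, where the shares over all genes tested were 34.0% and 32.7%.

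The number of genes called depended on the WT libraries. Without WT replicate 1, which leaves 3 libraries, 2 of the 39 were called lower (*Myc* and *Npm1*), and without WT replicate 2 there were 5 (*Gar1*, *Myc*, *Npm1*, *Rrp9* and *Rrs1*), while the share over all genes also dropped, to 5.24% and 7.27%. There were 14 without replicate 1 of CD4/ALK4-KO and 18 without its replicate 2. When libraries were scaled to 4 T cell receptor complex genes instead of by TMM, log2 fold changes shifted by -2.18 in the median over all genes, so that all 39 genes were called lower there, *Mxd1* included, as were 12803 of all genes against 48 called higher, where TMM gave 2140 lower and 2422 higher. On that scale the median of the 39 genes was -2.59 and that of all genes -2.19.

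**Figure D1:**
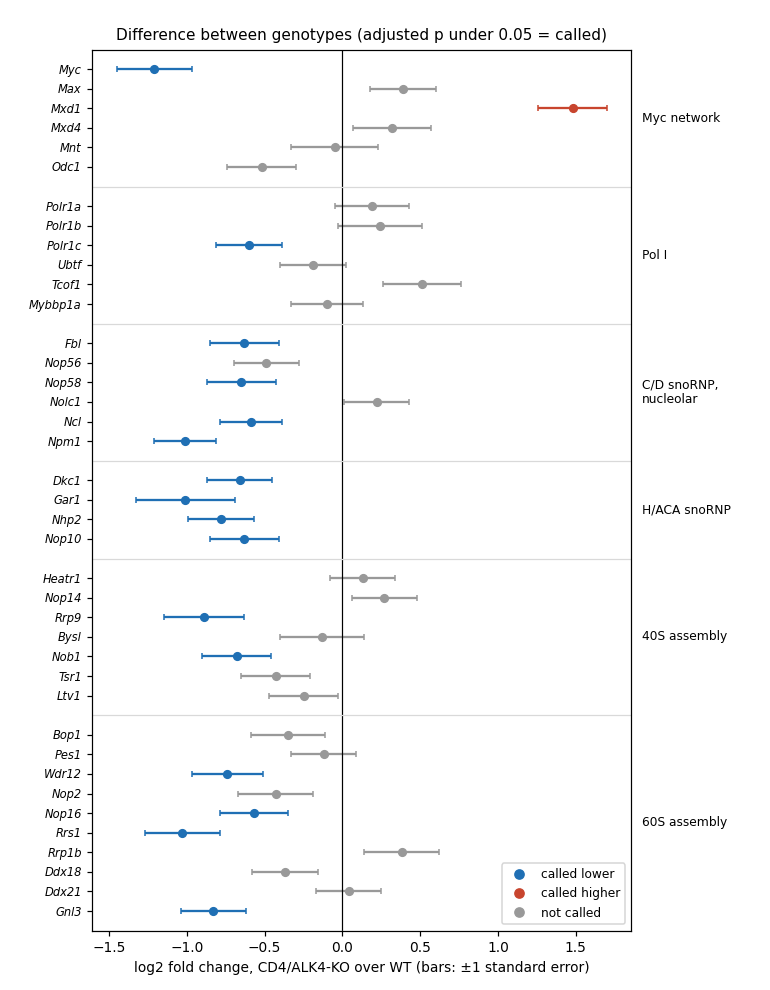
Log2 fold change of each of the 39 genes, CD4/ALK4-KO over WT, on the horizontal axis with bars of ±1 standard error (edgeR, TMM scaling), grouped by role. Blue points mark the 16 genes called lower and the red point *Mxd1*, called higher with TMM but lower (-0.70) when scaled to T cell receptor complex genes; grey points were not called.

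Of the 6 genes of the Myc network with *Odc1*, 1 was lower (*Myc*) and 1 higher (*Mxd1*). Each share, 16.7%, was near those over all genes tested, 15.4% lower and 17.4% higher. *Myc* (chromosome 15, 61985391 to 61990374, plus strand, GRCm38) was measured at 157 and 125 CPM in WT against 47.2 and 74.8 CPM in CD4/ALK4-KO. Both CD4/ALK4-KO libraries were below both WT libraries, a 2.31-fold decrease (log2 fold change -1.21, SE 0.24, adjusted p = 0.00045), and *Myc* stayed called lower without any single library, with log2 fold changes from -1.59 to -0.89. *Mxd1* (chromosome 6, 86647042 to 86669161, minus strand) went the other way, with 54.4 and 49.5 CPM in WT and 125 and 164 CPM in CD4/ALK4-KO. The groups did not overlap, a 2.78-fold rise (log2 fold change 1.48, SE 0.22, adjusted p = 2.2e-05), and leaving out single libraries gave 1.26 to 1.69, although scaling to the T cell receptor complex genes turned it to -0.70 (adjusted p = 0.0040; 1.1e-14 to 0.0040 over the alternatives).

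The partner they share, *Max*, had 88.0 and 102 CPM in WT and 128 and 121 CPM in CD4/ALK4-KO. Its CD4/ALK4-KO libraries were the higher ones, but the difference did not pass the test (log2 fold change 0.39, SE 0.21, adjusted p = 0.17). The other repressors of the network showed smaller differences. *Mxd4* was at 0.32 (SE 0.25, adjusted p = 0.34) with no overlap between groups, and *Mnt* at -0.05 (SE 0.28, adjusted p = 0.92) with overlapping groups of 11.8 to 14.9 CPM. *Odc1*, a textbook Myc target that makes the polyamine precursor putrescine, had 330 and 344 CPM in WT and 210 and 259 CPM in CD4/ALK4-KO. Both CD4/ALK4-KO libraries were lower, and the log2 fold change of -0.52 missed the threshold (SE 0.22, adjusted p = 0.070), passing it without CD4/ALK4-KO replicate 2 (-0.69, adjusted p = 0.0024). Of the read-length stretches of *Odc1*, 30.5% also occur in other annotated genes, so its count is uncertain.

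Ratios of raw counts within a library do not depend on the scaling between libraries. There were 0.346 and 0.396 *Mxd1* counts per *Myc* count in WT and 2.65 and 2.19 in CD4/ALK4-KO. *Mxd1* reads were thus the fewer of the pair in both WT libraries and the more numerous in both CD4/ALK4-KO libraries. The ratio of *Max* to *Myc* counts was 0.560 and 0.815 in WT and 2.71 and 1.61 in CD4/ALK4-KO, and that of *Mxd4* to *Myc* was 0.148 and 0.172 against 0.557 and 0.397. Relative to *Max*, *Mxd1* had 0.618 and 0.486 counts in WT and 0.980 and 1.36 in CD4/ALK4-KO. In each of these 4 ratios the WT and CD4/ALK4-KO libraries did not overlap. The ratios to *Myc* share their denominator, so they are not separate observations. For CPM of single genes, 34.0% of all genes tested were lower and 32.7% higher without overlap. The ratios were not tested.

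**Figure D2:**
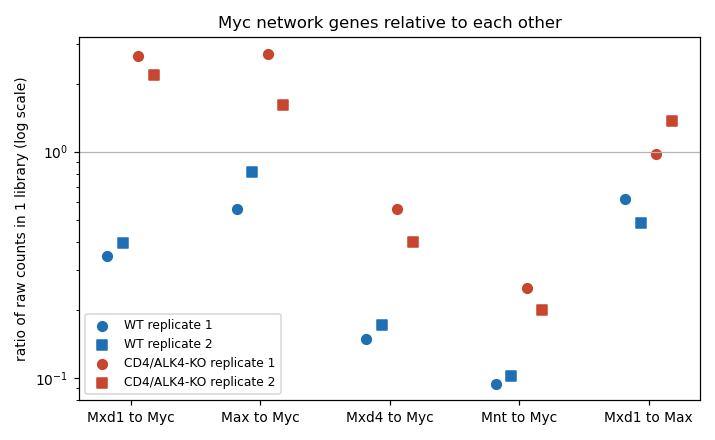
Ratio of the raw counts of pairs of Myc network genes in each of the 4 libraries, on a log axis, with circles for replicate 1 and squares for replicate 2. The *Mxd1* to *Myc* ratio lies below 1 in both WT libraries (0.346 and 0.396) and above 1 in both CD4/ALK4-KO libraries (2.65 and 2.19).

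Since Myc and Max with their antagonists read the canonical E-box, the letters CACGTG, the motif was looked up in the promoter windows of RefSeq on GRCm38.p6, which run from 250 bases before to 50 after each annotated start. The motif reads the same on both strands. Windows were found for 33 of the 39 genes, not for *Myc*, *Fbl*, *Npm1*, *Rrs1*, *Bop1* and *Tcof1*. Of 41 windows of these genes, 8 (19.5%) held the motif, against 7.15% of all 32851 windows in the table. The 8 genes were *Mxd4*, *Mnt*, *Max*, *Nop2*, *Pes1*, *Ltv1*, *Mybbp1a* and *Tsr1*, and none was called in either direction. None of the 12 lower genes with a window held it. A match is a description and not a binding site, and no match says only that these letters are not in this window. The matches are printed along the gene, with the E-box in capitals and up to 10 bases on each side, because 3 of the 8 belong to the Myc network itself:
*Mxd4*, chr5:34187914-34187939, minus strand: gctgggccacCACGTGctgttgctaa
*Mnt*, chr11:74830791-74830816, plus strand: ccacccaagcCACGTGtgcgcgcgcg
*Max*, chr12:76962236-76962261, minus strand: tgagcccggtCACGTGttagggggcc
*Nop2*, chr6:125131813-125131838, plus strand: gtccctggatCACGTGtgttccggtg
*Pes1*, chr11:3963967-3963992, plus strand: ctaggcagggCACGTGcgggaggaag
*Ltv1*, chr10:13193094-13193119, minus strand: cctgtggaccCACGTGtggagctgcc
*Mybbp1a*, chr11:72441357-72441376, plus strand: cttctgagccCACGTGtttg
*Tsr1*, chr11:74898094-74898119, plus strand: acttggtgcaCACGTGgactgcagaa
The E-box of *Max* begins 3 bases before the start, that of *Nop2* 60 and that of *Mnt* 123 bases before it, whereas in *Pes1*, *Tsr1*, *Ltv1* and *Mybbp1a* it lies at bases 3, 25, 29 and 41 of the transcript.

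RNA polymerase I transcription was represented by 6 genes, of which 1 was lower and none higher. That share of 16.7% was close to the 15.4% of all genes tested that were lower. *Polr1c*, a subunit shared by RNA polymerases I and III, had 114 and 110 CPM in WT and 75.1 and 72.1 CPM in CD4/ALK4-KO. The groups lay apart, with an SD of 2.45 CPM in WT and 2.14 CPM in CD4/ALK4-KO (n = 2), and the log2 fold change was -0.60 (SE 0.21, adjusted p = 0.030). The call was lost when either WT library was left out, with -0.59 (adjusted p = 0.26) for replicate 1 and -0.63 (adjusted p = 0.19) for replicate 2. The genes of the catalytic subunits did not follow. *Polr1a*, the largest subunit, had 49.5 and 42.5 CPM in WT and 41.3 and 63.8 CPM in CD4/ALK4-KO, and *Polr1b*, the next largest, had 21.7 and 19.4 against 19.7 and 28.8 CPM. The groups overlapped for both genes, with CD4/ALK4-KO replicate 2 the highest library in each, and the log2 fold changes of 0.19 and 0.24 had adjusted p-values of 0.57 and 0.53. Per count of *Polr1a*, *Polr1c* had 2.29 and 2.59 counts in WT and 1.82 and 1.13 in CD4/ALK4-KO, while *Polr1b* had 0.440 and 0.457 in WT and 0.478 and 0.451 in CD4/ALK4-KO.

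The factors that load or regulate the polymerase were not called. *Ubtf*, which binds the ribosomal DNA promoter, was at -0.19 (SE 0.21, adjusted p = 0.54), and *Mybbp1a*, a nucleolar Myb-binding protein, at -0.10 (SE 0.23, adjusted p = 0.77), both with overlapping groups. *Tcof1*, the gene of the nucleolar protein treacle, had 24.1 and 19.9 CPM in WT and 33.4 and 29.1 CPM in CD4/ALK4-KO. Its CD4/ALK4-KO libraries were both the higher ones, with a log2 fold change of 0.51 that did not pass the test (SE 0.25, adjusted p = 0.12) and that was -1.68 on the T cell receptor scale.

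Box C/D snoRNPs place methyl groups on ribosomal RNA, with fibrillarin (*Fbl*) as the enzyme and Nop56 and Nop58 as the core scaffold. *Fbl* had 92.2 and 90.3 CPM in WT and 52.4 and 65.8 CPM in CD4/ALK4-KO, and *Nop58* had 315 and 285 against 215 and 167 CPM. Both genes fell without overlap, by 0.63 (SE 0.22, adjusted p = 0.030) and 0.65 (SE 0.22, adjusted p = 0.028) on the log2 scale. *Nop56*, with 178 and 149 CPM in WT and 116 and 117 CPM in CD4/ALK4-KO, also lay lower in both CD4/ALK4-KO libraries but missed the threshold (log2 fold change -0.49, SE 0.21, adjusted p = 0.076; 0.042 without CD4/ALK4-KO replicate 2). Counts of *Fbl* and *Nop56* are uncertain, as 67.3% and 35.8% of their read-length stretches occur in other annotated genes. *Nolc1*, a chaperone that binds both kinds of snoRNP, was not lower, with 86.6 CPM in each WT library and 97.5 and 104 CPM in CD4/ALK4-KO (log2 fold change 0.22, SE 0.21, adjusted p = 0.45).

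The most abundant transcripts of the set encode nucleolin (*Ncl*) and nucleophosmin (*Npm1*), multifunctional proteins that make up much of the nucleolus. *Npm1* (chromosome 11, 33152287 to 33163206, minus strand) had 1830 and 2110 CPM in WT and 1040 and 914 CPM in CD4/ALK4-KO. Its level fell 2.01-fold (log2 fold change -1.01, SE 0.20, adjusted p = 0.00056) and it was called lower without any single library, from -1.12 to -0.91, although 30.9% of its read-length stretches occur in other annotated genes. *Ncl* (chromosome 1, 86344719 to 86359400, minus strand) had 1820 and 1800 CPM in WT and 1290 and 1120 CPM in CD4/ALK4-KO. The WT libraries differed little for *Ncl*, and the decrease was 1.5-fold (log2 fold change -0.59, SE 0.20, adjusted p = 0.026). Without WT replicate 1 or WT replicate 2, *Fbl* (-0.62 and -0.65), *Nop58* (-0.58 and -0.73) and *Ncl* (-0.59 and -0.60) kept their size but were no longer called, and *Fbl* was also not called without CD4/ALK4-KO replicate 1 (-0.44, adjusted p = 0.10).

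Box H/ACA snoRNPs convert uridine to pseudouridine in ribosomal RNA and also stabilize telomerase RNA. The genes of all 4 core proteins of the complex were called lower in CD4/ALK4-KO with TMM scaling, against 15.4% of all genes tested. For each of them both CD4/ALK4-KO libraries lay below both WT libraries, against 34.0% of all genes tested. *Dkc1*, the pseudouridine synthase dyskerin (chromosome X, 75095854 to 75109777, plus strand), had 150 and 147 CPM in WT and 100 and 86.9 CPM in CD4/ALK4-KO (log2 fold change -0.66, SE 0.21, adjusted p = 0.018). *Nhp2*, a small RNA-binding subunit, had 120 and 108 CPM in WT against 68.0 and 64.6 CPM, with a log2 fold change of -0.78 (SE 0.21, adjusted p = 0.0065). *Nop10*, the smallest subunit, had 89.0 and 73.6 CPM against 52.8 and 52.1 CPM, with a log2 fold change of -0.63 (SE 0.22, adjusted p = 0.028). The 3 genes moved by similar amounts, and their ratios within a library stayed close. Per count of *Dkc1*, *Nhp2* had 0.800 and 0.738 counts in WT and 0.678 and 0.743 in CD4/ALK4-KO, and *Nop10* had 0.595 and 0.501 in WT and 0.526 and 0.599 in CD4/ALK4-KO.

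*Gar1*, the subunit that helps release the modified RNA, was the most variable of the 4. It had 29.6 and 25.4 CPM in WT and 8.15 and 19.1 CPM in CD4/ALK4-KO, so that replicate 1 of CD4/ALK4-KO was far below the other libraries. The log2 fold change was -1.01 (SE 0.32, adjusted p = 0.019), and it was -0.49 and not called when replicate 1 of CD4/ALK4-KO was left out (adjusted p = 0.15) and -1.76 when replicate 2 was. Without WT replicate 1 none of the 4 genes was called, with log2 fold changes of -0.90 (*Gar1*), -0.72 (*Nhp2*), -0.66 (*Dkc1*) and -0.50 (*Nop10*), and without WT replicate 2 *Gar1* was (-1.12, adjusted p = 0.028) but *Nhp2* (-0.86), *Dkc1* (-0.69) and *Nop10* (-0.77) were not.

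Small subunit assembly was represented by 7 genes, of which 2 (28.6%) were lower, against 15.4% of all genes tested, and none higher. *Rrp9*, a protein of the U3 snoRNP that guides early cleavage of the precursor, had 44.3 and 28.0 CPM in WT and 18.2 and 20.7 CPM in CD4/ALK4-KO. Both CD4/ALK4-KO libraries were lower, though the WT libraries differed widely, and the log2 fold change of -0.89 (SE 0.26, adjusted p = 0.011) was -0.53 and not called without WT replicate 1 (adjusted p = 0.41) and -1.2 without WT replicate 2. *Nob1*, the endonuclease of the last cleavage step, had 75.2 and 72.8 CPM in WT and 40.4 and 52.1 CPM in CD4/ALK4-KO. The groups did not overlap, with a log2 fold change of -0.68 (SE 0.22, adjusted p = 0.021) that was not called without WT replicate 1 (-0.66), WT replicate 2 (-0.71) or CD4/ALK4-KO replicate 1 (-0.48).

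The other 5 genes of the small subunit route were not called. *Heatr1*, a large scaffold of the early processome, had 119 and 136 CPM in WT and 151 and 128 CPM in CD4/ALK4-KO, with overlapping groups and a log2 fold change of 0.13 (adjusted p = 0.68). *Nop14*, another processome factor, was at 0.27 (adjusted p = 0.36) with TMM and -1.92 on the T cell receptor scale. Factors that act later lay below 0, with *Bysl*, the gene of bystin, at -0.13, *Ltv1*, an export adaptor, at -0.25, and *Tsr1*, a GTPase-like late factor, at -0.43 (adjusted p = 0.13). *Tsr1* passed the threshold without CD4/ALK4-KO replicate 1 (-0.55, adjusted p = 0.038), and its count is uncertain because 34.2% of its exonic bases overlap exons of *Srr* and the strand option of the counting is not given in the sources used here.

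Large subunit assembly was represented by 10 genes, of which 4 (40.0%) were lower, against 15.4% of all genes tested, and none higher. *Rrs1*, which brings the 5S ribosomal RNA into the precursor, had 55.4 and 39.3 CPM in WT and 21.3 and 24.9 CPM in CD4/ALK4-KO. It fell 2.05-fold without overlap (log2 fold change -1.03, SE 0.24, adjusted p = 0.0022). *Gnl3*, the GTPase nucleostemin, had 170 and 174 CPM in WT and 108 and 86.3 CPM in CD4/ALK4-KO. The WT libraries were close together for *Gnl3*, and the log2 fold change was -0.83 (SE 0.21, adjusted p = 0.0049). *Nop16* had 63.4 and 63.0 CPM in WT and 45.3 and 39.6 CPM in CD4/ALK4-KO, and was just past the threshold (log2 fold change -0.57, SE 0.22, adjusted p = 0.045).

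Pes1, Bop1 and Wdr12 form 1 complex that acts in processing of the large subunit RNA, and their genes differed from each other. *Wdr12* had 79.6 and 71.0 CPM in WT and 55.0 and 35.4 CPM in CD4/ALK4-KO and was lower (log2 fold change -0.74, SE 0.23, adjusted p = 0.019). *Bop1*, with 52.9 and 39 CPM in WT and 30.2 and 41.7 CPM in CD4/ALK4-KO, overlapped between genotypes (log2 fold change -0.35, adjusted p = 0.27). *Pes1* had nearly the same level in all libraries, with 131 and 130 CPM in WT and 121 and 119 CPM in CD4/ALK4-KO (log2 fold change -0.12, SE 0.21, adjusted p = 0.70). Relative to *Pes1* within a library, *Wdr12* had 0.610 and 0.547 counts in WT and 0.455 and 0.298 in CD4/ALK4-KO. Of the read-length stretches of *Pes1*, 13.2% occur in other annotated genes.

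The remaining large subunit genes were not called. *Ddx21*, an abundant nucleolar helicase, had 325 and 354 CPM in WT and 368 and 329 CPM in CD4/ALK4-KO, with overlapping groups and a log2 fold change of 0.04 (SE 0.21, adjusted p = 0.91). It was -0.03 with the upper quartile in place of TMM, and -2.15 on the T cell receptor scale, where the median of all genes was -2.19. *Nop2*, a ribosomal RNA methyltransferase, was at -0.43 (adjusted p = 0.18), the helicase *Ddx18* at -0.37 (adjusted p = 0.19, with 50.2% of its read-length stretches shared with other annotated genes), and *Rrp1b* at 0.38 (adjusted p = 0.24; -1.79 on the T cell receptor scale). Without CD4/ALK4-KO replicate 2, *Bop1* (-0.61, adjusted p = 0.040) and *Nop2* (-0.63, adjusted p = 0.035) were called lower, whereas *Wdr12* (-0.46, adjusted p = 0.094) and *Nop16* (-0.49, adjusted p = 0.081) were not. Without WT replicate 1, *Rrs1* (-0.77), *Gnl3* (-0.85), *Wdr12* (-0.66) and *Nop16* (-0.58) were not called, and without WT replicate 2 *Rrs1* was called (-1.27) but *Gnl3* (-0.82), *Wdr12* (-0.83) and *Nop16* (-0.59) were not.

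**Figure D3:**
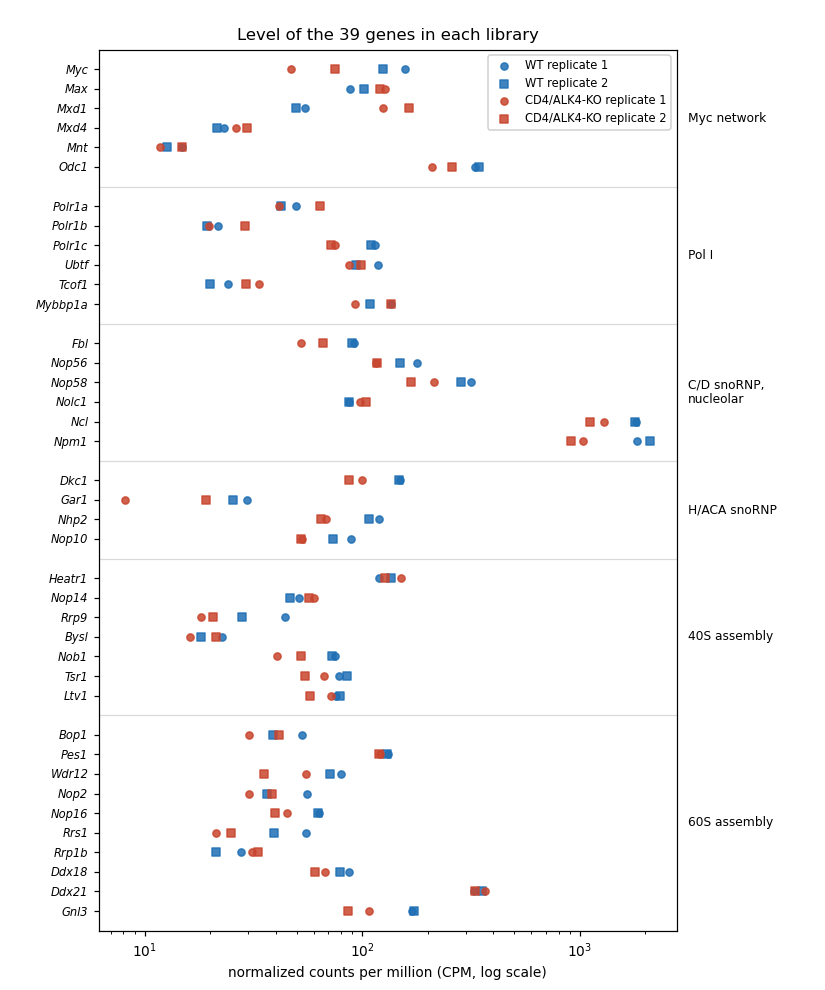
Level of each of the 39 genes in the 4 libraries, in TMM-scaled CPM on a log axis, grouped by role, with WT in blue, CD4/ALK4-KO in red, circles for replicate 1 and squares for replicate 2. The red points lie to the left of the blue ones for all 4 H/ACA genes and to the right for *Mxd1*, while they overlap for 10 of the 39 genes, such as *Ddx21* and *Heatr1*.

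Several of these genes also carry snoRNA genes inside them on the same strand. In GENCODE M21, 7 of the 39 hold 19 snoRNAs, with 5 in *Nop56*, 4 in *Nop58*, 3 each in *Ncl* and *Gnl3*, 2 in *Tsr1* and 1 each in *Odc1* and *Dkc1*. All 7 host genes had a log2 fold change below 0 with TMM, and 4 (*Nop58*, *Ncl*, *Dkc1* and *Gnl3*) were called lower. Of the 32 genes without a snoRNA, 12 were called lower. In the whole set 28 of the 39 genes were below 0, and among all genes tested 15.4% were called lower. A difference between host genes and the others was not tested. The snoRNAs themselves were not analysed here.

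Other genes of the same pathways were listed by textbook role, also with earlier results of these data known. Among 78 further genes of RNA polymerase I and of 40S and 60S assembly, 12 (15.4%) were lower and 2 higher, a share of lower genes equal to that of all genes tested, and their median log2 fold change was -0.20. None of 10 further polymerase I genes was lower, and 1 was higher, *Taf1c* of the promoter selectivity complex, at a low level of 4.99 ± 0.993 CPM in WT and 12.4 ± 3.64 CPM in CD4/ALK4-KO (SD, n = 2; log2 fold change 1.31, SE 0.34, adjusted p = 0.0047), which lost its call without WT replicate 2 (1.11, adjusted p = 0.096). Of 34 further 40S factors, 6 were lower, among them *Wdr75* (-0.65), *Utp4* (-0.62), *Fcf1* (-0.61) and the abundant *Wdr36* (-0.59). The most abundant of that list, *Wdr43* (-0.35, adjusted p = 0.25) and *Emg1* (-0.08, adjusted p = 0.81), were not called. Of 34 further 60S factors, 6 were lower, with *Brix1* (-0.81, adjusted p = 0.0064) and *Nip7* (-0.78, adjusted p = 0.0075) as the largest decreases. Neither was called without WT replicate 1 (adjusted p = 0.074 and 0.11) or WT replicate 2 (adjusted p = 0.075 and 0.094).

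The exception in the opposite direction was *Mdn1*, which encodes midasin, a very large ATPase that strips assembly factors from the 60S precursor. It had 957 and 1261 counts in WT and 2504 and 2711 in CD4/ALK4-KO, or 81.5 ± 16.5 CPM and 215 ± 6.51 CPM (SD, n = 2). The log2 fold change was 1.40 (SE 0.22, adjusted p = 4.5e-05), and leaving out single libraries gave 1.2 to 1.61. On the T cell receptor scale no gene of the lists of other genes was called higher, *Mdn1* included. The most abundant 60S factors beside it, *Ftsj3* (-0.38, adjusted p = 0.18) and *Gtpbp4* (-0.21, adjusted p = 0.51), were not called.

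Further members of the Myc network were not called lower either. Of 8 genes 7 were tested, and 1 (14.3%) was called higher in CD4/ALK4-KO with TMM scaling, against 17.4% of all genes tested. That gene was *Mlxip*, which encodes the Mlx partner MondoA (21 ± 0.712 CPM in WT and 53.5 ± 17.7 CPM in CD4/ALK4-KO, SD, n = 2; log2 fold change 1.35, SE 0.25, adjusted p = 0.00025). It was 1.68 when replicate 1 of CD4/ALK4-KO was left out and 0.96 when replicate 2 was. *Mga* was at 0.45 (adjusted p = 0.14), *Mxi1*, another Mxd-type repressor, at -0.40 (adjusted p = 0.18) and *Mlx* at 0.28 (adjusted p = 0.33). *Mycn* did not pass the filter on low counts.

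Myc targets outside the nucleolus were the list with the largest share of lower genes among the lists of other genes. Of 24 tested, 18 (75.0%) were lower, against 15.4% of all genes tested, and 1 was higher. The median log2 fold change of the 24 was -0.82. The largest decreases with at least 100 counts were those of *Bcat1*, a branched-chain aminotransferase, with 76.0 ± 16.4 CPM in WT and 24.5 ± 1.00 CPM in CD4/ALK4-KO (log2 fold change -1.63, SE 0.23, adjusted p = 1.2e-05), and of *Srm*, the spermidine synthase that acts after *Odc1*, with 64.4 ± 12.6 and 25.9 ± 0.438 CPM (SD, n = 2; log2 fold change -1.31, SE 0.23, adjusted p = 0.00013). The most abundant genes of the list were lower as well. *Ldha*, *Eif4a1* and *Ptma* had log2 fold changes of -0.91, -0.67 and -0.69. The gene that rose was *Ccnd2*, the D-type cyclin 2 of lymphocytes, at 89.4 ± 9.08 CPM in WT and 256 ± 6.72 CPM in CD4/ALK4-KO (SD, n = 2; log2 fold change 1.52, SE 0.22, adjusted p = 1.4e-05). Over all lists of other genes, 109 were tested, of which 30 (27.5%) were called lower and 4 (3.67%) higher. Of all genes tested, 15.4% were lower and 17.4% higher. As single libraries were left out, log2 fold changes ran from -1.85 to -1.40 for *Bcat1* and from -1.51 to -1.10 for *Srm*.

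**Figure D4:**
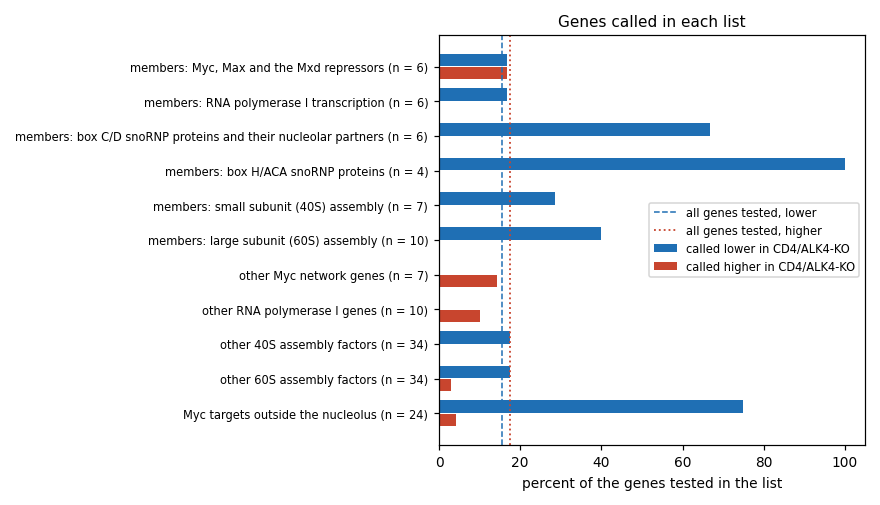
Percent of the tested genes of each list called lower (blue) or higher (red) in CD4/ALK4-KO with TMM scaling, with dashed and dotted lines at the shares over all genes tested (15.4% and 17.4%). The H/ACA (100%), C/D and nucleolar (66.7%), 60S (40.0%) and 40S (28.6%) genes of the set and the Myc targets outside the nucleolus (75.0%) lie above the line for lower genes, while the further polymerase I, 40S and 60S lists lie near or below it.

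Genes called lower were more frequent among those with a short coding sequence, a split chosen after the values were seen. At the median coding length of all genes tested, 1395 bases, 16 of the 39 genes were shorter and 23 longer. Of the shorter ones 11 (68.8%) were lower, and of the longer ones 5 (21.7%), with median log2 fold changes of -0.63 and -0.19. The longest coding sequences belonged to genes that were not called, *Heatr1* (6429 bases), *Polr1a* (5151 bases), *Tcof1* (4068 bases) and *Mybbp1a* (4032 bases), whereas *Nop10* (192 bases), *Nhp2* (459 bases) and *Nop16* (543 bases) were lower. *Max* (480 bases) and *Mxd4* (627 bases) are short and were not called, and *Mxd1* (681 bases) was higher. A split in the same direction was present among all genes tested with a coding length, where 19.7% of the shorter and 11.3% of the longer genes were lower, and 11.9% and 23.1% were higher. Among the further polymerase I, 40S and 60S genes, 30.8% of 26 shorter and 7.69% of 52 longer genes were lower. The Pearson correlation of log2 fold change with log2 coding length was 0.264 over the 39 genes. Over all genes tested with a coding length it was 0.216. Whether length itself, RNA quality or the role of the genes accounts for these differences was not tested.

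**Figure D5:**
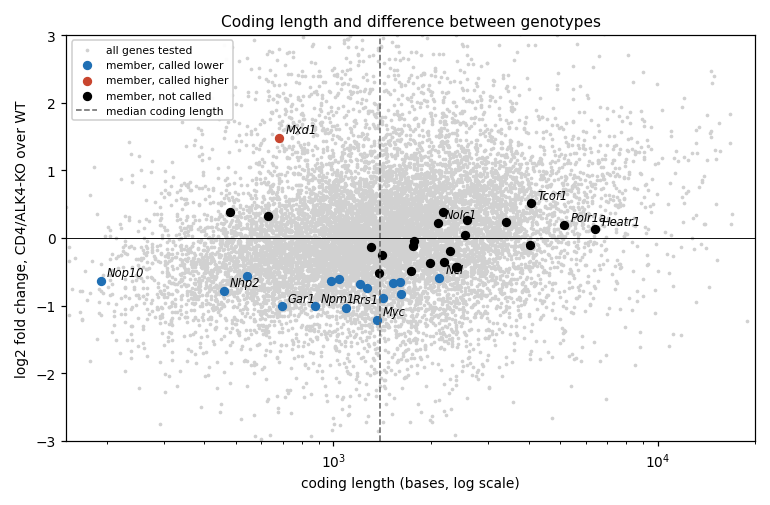
Coding length in bases (log axis) against the log2 fold change, CD4/ALK4-KO over WT with TMM scaling, for all genes tested with a coding length (grey) and the 39 genes (blue called lower, red called higher, black not called). The dashed line marks the median of 1395 bases, left of which lie 11 of the 16 genes called lower; 105 genes fall outside the plotted range.

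Some genes of dividing cells and some markers of other cells also differed between the genotypes, in both directions. The counts below stand beside 15.4% lower and 17.4% higher over all genes tested. Of 8 genes of dividing cells, 6 were lower in CD4/ALK4-KO, among them *Cdk1* (log2 fold change -1.49), and *Mki67* was not (0.39, adjusted p = 0.20), with a summed level of 1350 and 1440 CPM in WT and 935 and 715 CPM in CD4/ALK4-KO. Genes that trace the tumor line in these libraries, *Rhox5*, *Plac1*, *Peg3* and *Igf2bp1*, summed to 325 and 386 CPM in WT and 46.8 and 59.6 CPM in CD4/ALK4-KO, and 2 of the 4 were called lower. Of the 6 fibroblast genes 3 were lower, and of the 8 epithelial genes 4 were lower and 2 higher. Of the 8 macrophage genes none was lower and 1 (12.5%) was higher. Of 6 neutrophil genes none was lower and 2 (33.3%) were higher. Of 6 endothelial genes 1 was lower and 1 higher (16.7% each), near the shares over all genes tested. All 6 B cell genes were higher, with summed levels of 55.8 to 65.4 CPM in WT and 184 to 361 CPM in CD4/ALK4-KO, as were all 6 genes of CD8 T and NK cells, with 128 to 182 CPM in WT and 533 to 638 CPM in CD4/ALK4-KO. No defining marker of these cell types was at 0. The summed level of the 39 genes was 7350 and 7400 CPM in WT and 5240 and 5000 CPM in CD4/ALK4-KO, so it was lower where T cell markers were higher and where markers of dividing cells and of the tumor were lower, and the part of these cells in the result was not tested.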

How the data were processed

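The authors aligned 75 bp single-end reads of 4 libraries to mm10 with HISAT2 and counted them using htseq-count (intersection-nonempty). The deposited values are raw counts per gene symbol. The annotation, the strand option and the tool versions are not given in the sources used here. Reads with copies elsewhere may have been dropped or split. Total counts were 47.3% to 55.8% of the stated read number. Replicates differed beyond sampling noise (chi-square per degree of freedom 16.0 in WT and 28.7 in CD4/ALK4-KO). The series' text calls the 2 samples per genotype biological replicates.

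From the counts, edgeR 4.0.16 in R 4.3.3 was run with filterByExpr, TMM and the quasi-likelihood F-test (robust, genotype alone in the model), tested on simulated data, with Benjamini-Hochberg adjustment over 13919 genes. The standard error is the absolute log2 fold change over the square root of F. The alternatives were other scalings and filters, the replicate number as a block, DESeq2 1.42.0, a likelihood ratio test and each library left out. Every one of the 39 genes is named. Of other lists, the 3 most abundant genes and up to 3 with the largest called changes and a mean of at least 100 counts were eligible. The members and lists were chosen with earlier results of these data known. Of 7 T cell receptor complex genes listed, 4 were in the tables and served for scaling. Coding lengths, positions and shared read-length stretches (75 bases found in another gene's transcript) are from GENCODE M21, GRCm38, which matched 24383 of the symbols, and promoter windows are from RefSeq.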

Additional observations from a re-analysis of the deposited data

How the results depend on the processing

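With 2 libraries per genotype, a call rests on 4 values and on a spread shared across genes. The 16 genes called lower with the TMM fit of edgeR were all called lower with DESeq2's size factors, without a filter, with at least 10 counts in every library and with the likelihood ratio test (16 each), with upper quartile scaling (18) and with DESeq2's Wald test (17). With scaling by T cell receptor genes, 39 were lower and 0 higher. With the replicate number as a block there were 8 lower (*Gar1*, *Gnl3*, *Myc*, *Nhp2*, *Npm1*, *Rrp9*, *Rrs1* and *Wdr12*), all among the 16, where 10.4% of all genes were lower. Crossed numbers were an alternative added after seeing the data, because same-numbered replicates deviated in opposite directions (correlation -0.214 over all genes). They gave 19 lower and 3 higher, where 3037 of all genes (21.8%) were lower and 3118 higher. Nothing in the labels says that a number marks a shared litter or day. As each library was left out the count of lower genes ran from 2 to 18.

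Other genes of the pathways called lower were 30 in the TMM fit, 109 on the T cell receptor scale, 15 with the replicate block, and 2 to 37 as libraries were left out. Those called higher were 4, then 0 on the T cell receptor scale, 7 with crossed numbers, and 3 to 8 as libraries were left out. Over all genes, 12803 were lower and 48 higher on the T cell receptor scale, and 754 to 2618 were lower and 1103 to 2923 higher as libraries were left out.

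Signs turned for single genes that were above 0 with TMM. On the T cell receptor scale these were *Max* (-1.80), *Mxd1* (-0.70), *Mxd4* (-1.86), *Polr1a* (-1.97), *Polr1b* (-1.93), *Tcof1* (-1.68), *Nolc1* (-1.96), *Heatr1* (-2.07), *Nop14* (-1.92), *Rrp1b* (-1.79) and *Ddx21* (-2.15), in each case beside the shift of all genes. *Ddx21* was -0.03 with upper quartile scaling. As libraries were left out, log2 fold changes crossed 0 for *Mnt* (-0.23 to 0.15), *Polr1a* (-0.16 to 0.50), *Polr1b* (-0.07 to 0.51), *Mybbp1a* (-0.41 to 0.18), *Bysl* (-0.34 to 0.09) and *Ddx21* (-0.03 to 0.11), none of them called with TMM.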
